A study of Mus musculus with 6 samples.

Results

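The genes described here carry out or restrain 3 forms of programmed cell death, apoptosis, necroptosis and pyroptosis, and were chosen by name as 35 of the 32285 genes in the count table. They comprise BCL2 family proteins, caspases, inhibitors of apoptosis, death receptors with their adaptors, and the executors of necroptosis and pyroptosis. Polyadenylated RNA was sequenced from C57BL/6J wild-type mouse retinas at PN18 (PN, postnatal day), 3 OIR-CIH and 3 OIR-Norm. All pups, with their mothers, were kept at 75% O2 from PN8 for 5 days, the oxygen-induced retinopathy (OIR) model in which the central capillaries are lost, and were returned to room air at PN13, so that both groups carried the retinopathy and no library came from a retina without it. After the hyperoxia and until collection at PN18, OIR-CIH pups underwent chronic intermittent hypoxia (CIH). It ran as 266 cycles of 135 s between 20.95% and 5% O2 over 10 h each day. The gas supplied to OIR-Norm pups, at matching flow, held O2 constant. The comparison asks whether CIH altered the transcripts of the cell death machinery in the ischemic retina.

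In apoptosis, BH3-only proteins sense damage and release BAX and BAK from their BCL2-type inhibitors, and the pores these form in mitochondria let out cytochrome c, which assembles with APAF1 to activate caspase-9. Death receptors such as TNFR1 and FAS instead recruit FADD, RIPK1 and caspase-8, and when caspase-8 is blocked RIPK1 can pass the signal to RIPK3 and MLKL, the necroptosis pathway. In pyroptosis, inflammatory caspases cleave gasdermin D, whose fragments perforate the cell membrane. Photoreceptor loss in retinal ischemia and detachment has been tied to all of these routes. Most of these proteins are switched on by cleavage or binding, which RNA levels do not measure.

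The total count per library ranged from 26289905 to 38010151 in OIR-CIH and from 27664452 to 31645321 in OIR-Norm. In OIR-Norm replicate 2 the summed level of 3 lens markers was 354 CPM (read counts scaled by library size), against 7.99 to 53.6 CPM in the other 5 libraries, so that this library stood apart in lens RNA. The same library had the highest sum of 7 endothelial markers, 337 CPM, against 264 to 287 CPM in the other OIR-Norm libraries and 260 to 296 CPM in OIR-CIH, and all 7 had a negative log2 fold change with groups that overlapped. Rod markers summed to between 43711 and 57683 CPM in the 6 libraries, as a retina would give. The summed level of 12 microglial markers was 121 to 139 CPM in OIR-CIH and 153 to 172 CPM in OIR-Norm, without overlap, with 11 of the 12 lower in OIR-CIH and 6 of them at an unadjusted p under 0.05. None of the 12 was at 0, and in bulk RNA fewer cells of a type and less RNA per cell cannot be told apart. By flow cytometry, the study counted fewer microglia in OIR-CIH than in OIR-Norm retinas at PN18. The part of cell number in these RNA values was not tested. Of 8 markers of Muller glia and astrocytes, 4 had a negative and 4 a positive log2 fold change, and Gfap, the marker of reactive glia, fell by 1.15 on the log2 scale (edgeR adjusted p = 0.000187). The 4 markers of the pigment epithelium summed to between 691 and 834 CPM in OIR-CIH and between 501 and 611 CPM in OIR-Norm. Most of these sums was Rlbp1, at 492 to 556 and 389 to 437 CPM, which is also among the 8 Muller glia and astrocyte markers. Of the 4, 3 had a positive log2 fold change and Best1 a negative one (-0.19). Neutrophil and monocyte markers summed to 1.33 CPM in OIR-Norm replicate 2 and to between 0.118 and 0.450 CPM in the other 5 libraries. Lymphocyte markers summed to at most 1.33 CPM in any library. Of these 5 and 4 markers, respectively, 1 and 1 was at 0 throughout. The study's methods give 3 eyes per group for 3 libraries, but both Xist and Y-linked RNA were found in every library, so that the number of animals in each is not known, n counts libraries, and p-values measure the spread between these libraries only.

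These counts measure RNA and not promoter activity. As 3 members had every OIR-CIH library below every OIR-Norm library (Tnfrsf1a, Ripk1 and Bcl2), the 200 bases before their RefSeq transcription starts are shown for reference. The sequences are from RefSeq (GRCm38.p6) and run 5′ to 3′ on the strand of the gene, with each GC box (GGGCGG on either strand) in capitals.
Tnfrsf1a, chr6:125349523-125349722, plus strand: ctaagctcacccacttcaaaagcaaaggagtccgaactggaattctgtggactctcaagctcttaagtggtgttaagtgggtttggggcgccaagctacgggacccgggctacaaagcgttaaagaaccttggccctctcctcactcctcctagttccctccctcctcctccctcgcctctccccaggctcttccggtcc
Ripk1, chr13:34002163-34002362, plus strand: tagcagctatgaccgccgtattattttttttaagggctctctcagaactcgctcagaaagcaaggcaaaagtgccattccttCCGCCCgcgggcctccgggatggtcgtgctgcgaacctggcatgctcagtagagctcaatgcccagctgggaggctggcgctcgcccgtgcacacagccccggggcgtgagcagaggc
Bcl2, chr1:106714291-106714490, minus strand: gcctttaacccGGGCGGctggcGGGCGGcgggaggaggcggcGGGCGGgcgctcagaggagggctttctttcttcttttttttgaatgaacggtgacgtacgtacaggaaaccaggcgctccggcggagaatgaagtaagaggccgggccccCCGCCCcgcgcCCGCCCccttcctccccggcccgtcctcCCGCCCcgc
The Bcl2 window held 6 GC boxes, that of Ripk1 held 1 and that of Tnfrsf1a none. Among 32851 windows of equal length that were searched, 31.0% held a GC box, against 24 of the 46 windows that belong to 33 of the 35 members. None of the 3 windows shown matched the NF-kB consensus, the AP-1 motif TGANTCA, the STAT motif TTCNNNGAA or the hypoxia response core ACGTG, searched on both strands, which were found in 6.07%, 5.48%, 5.49% and 14.0% of all windows. A match or its absence describes these letters only. Ripk1 has 2 listed starts, of which the one shown adjoins the annotated gene start. The window of its other start, not shown, held the STAT motif. The Tnfrsf1a window lies inside the GENCODE gene span, downstream of the annotated gene start.

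All 35 members passed the minimum total count of 10 and were tested among 20021 genes with the quasi-likelihood test of edgeR, where a gene was called if its log2 fold change exceeded 0.5 in either direction and its Benjamini-Hochberg adjusted p was under 0.05. None of the 35 was called, beside 0.315% of all genes. DESeq2 called 1 member, Tnfrsf1a, beside 0.858% of the 15735 genes to which it gave an adjusted p, and limma called 0. Unadjusted p under 0.05 in edgeR was found for 7 members, beside 13.4% of all genes. Of these, 4 were lower in OIR-CIH (Tnfrsf1a, Ripk1, Bcl2 and Casp1; 7.09% of all genes) and 3 were higher (Bbc3, Bad and Bok; 6.3% of all genes). The libraries of the groups did not overlap for 5 members (14.3%), a share below the 18.4% of all genes, with Tnfrsf1a, Ripk1 and Bcl2 lower (9.26% of all genes) and Bbc3 and Bad higher (9.12%). The median log2 fold change was -0.02 over the members and -0.01 over all genes, and the median absolute log2 fold change was 0.12 over the members and 0.15 over all genes. Counting all members, 22 had a negative and 13 a positive log2 fold change.

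**Figure D1:**
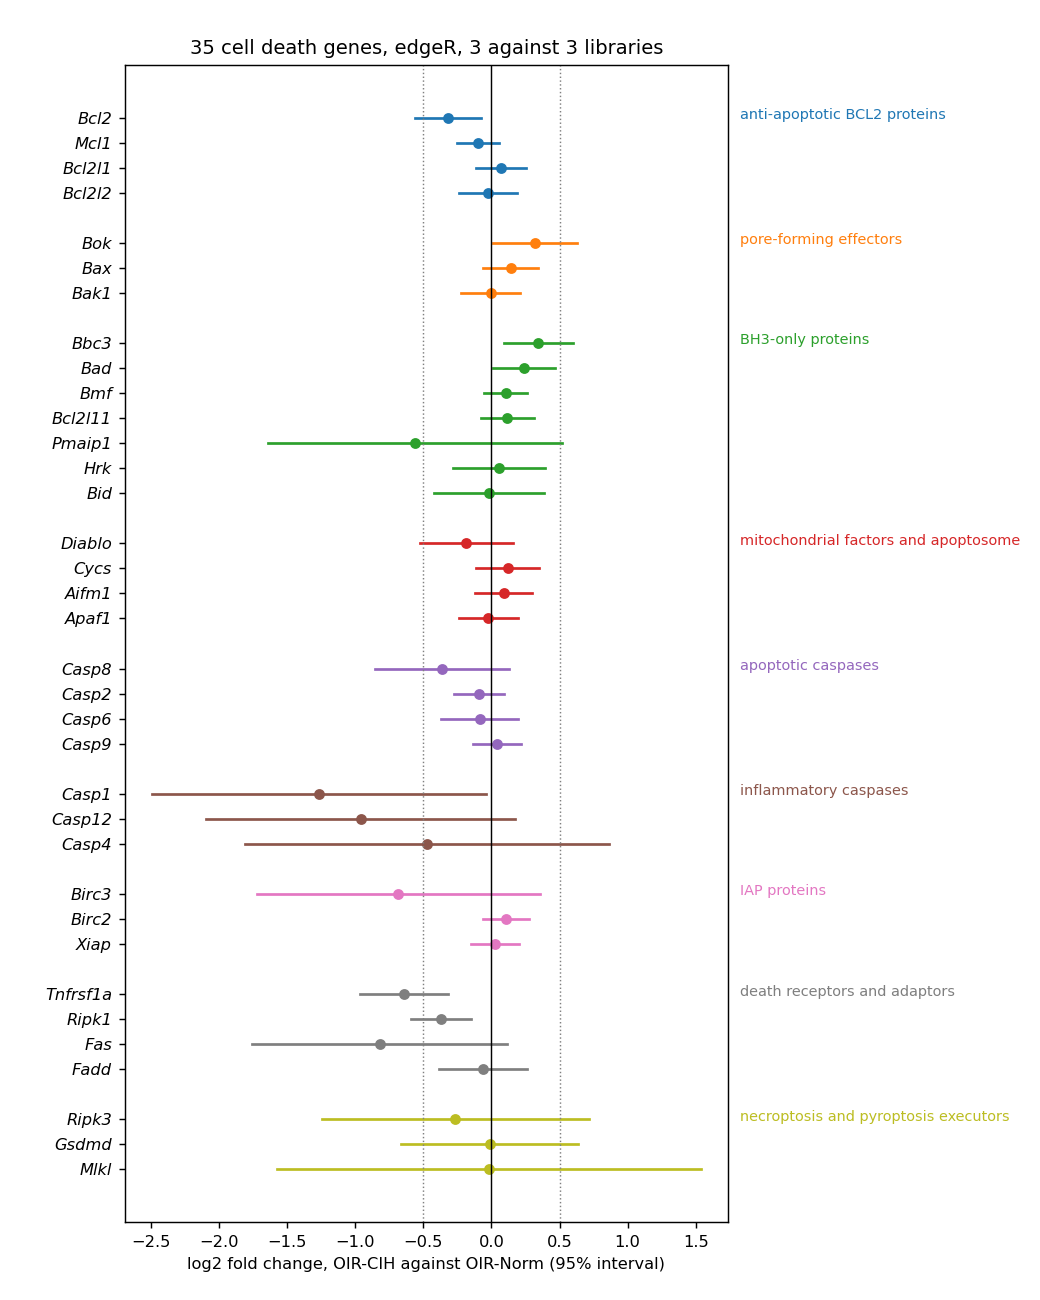
Log2 fold change of each of the 35 genes in OIR-CIH against OIR-Norm (point) with its 95% interval (line), grouped and coloured by role, from edgeR with 3 libraries per group. Dotted lines mark the minimum fold change of 0.5 in either direction. Tnfrsf1a lies at -0.64 with an interval from -0.96 to -0.32, and the widest intervals belong to genes under 1 CPM such as Mlkl and Casp1.

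Among death receptors and their adaptors all 4 members had a negative log2 fold change, with a median of -0.50. Tnfrsf1a encodes TNFR1, the receptor through which TNF triggers both inflammatory and death signalling. Its level was 15.6, 13.0 and 15.7 CPM in OIR-CIH replicates 1 to 3 and 25.3, 26.6 and 17.3 CPM in OIR-Norm replicates 1 to 3. Every OIR-CIH library lay below every OIR-Norm library, but OIR-Norm replicate 3 was close to the OIR-CIH range and far from the other libraries of its group. The means were 14.8 ± 1.505 CPM (SD, n = 3) and 23.1 ± 5.02 CPM (SD, n = 3), a log2 fold change of -0.64 ± 0.15 (SE) with an edgeR adjusted p of 0.131. The exact permutation test gave p = 0.1 (two-sided), the smallest that 3 against 3 libraries allow. Tnfrsf1a was called by DESeq2 at nearly the same log2 fold change of -0.64 with an adjusted p of 0.00367. Without OIR-Norm replicate 3 it was called by edgeR too, at -0.81 with an adjusted p of 0.00775. In the 11 other alternatives it was not called, and leaving out OIR-Norm replicate 2, the library with lens RNA, gave -0.53 with an adjusted p of 0.341. The gene spans chr6:125349362-125362484 on the plus strand (GENCODE M21, GRCm38), with no exon shared with another gene. Tnfrsf1a is on the list of changed genes that the study itself drew from these samples, which is not independent of the values here.

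**Figure D2:**
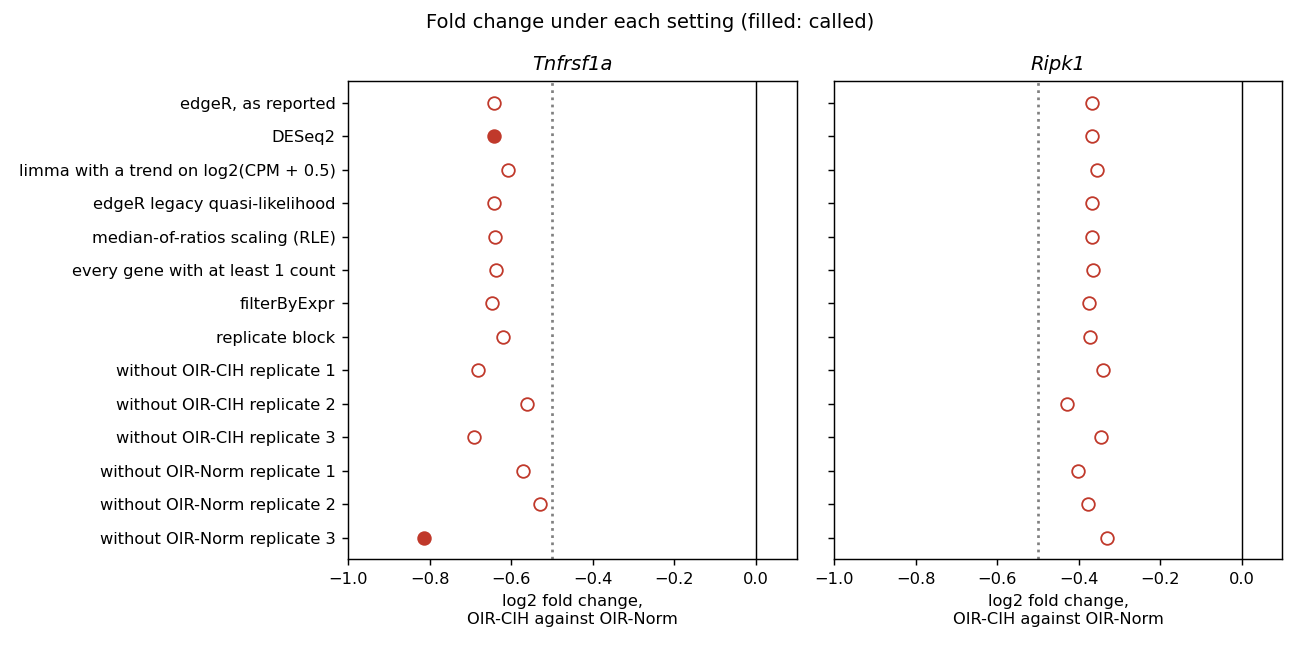
Log2 fold change of Tnfrsf1a and Ripk1 in OIR-CIH against OIR-Norm (x axis) under edgeR as reported and each of 13 alternatives (y axis), with called values filled and a dotted line at -0.5. All Tnfrsf1a values lie between -0.81 and -0.53, of which 2 are called, and all Ripk1 values lie on the side of lower levels in OIR-CIH between -0.43 and -0.33.

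Ripk1 encodes the kinase that TNFR1 recruits and that directs the signal towards survival, apoptosis or necroptosis. Its level was 11.2, 12.7 and 11.4 CPM in OIR-CIH and 14.6, 15.0 and 16.0 CPM in OIR-Norm. The groups did not overlap, and the spread within each was small. The log2 fold change was -0.37 ± 0.10 (SE) with an edgeR adjusted p of 0.197, and leaving out single libraries moved it between -0.43 and -0.33. Of its exon bases, 2.89% are shared with Serpinb6a on the opposite strand, at chr13:34002363-34037147.

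Fas, the receptor for FAS ligand, was near the lower limit of the data, with 0.275 to 0.582 CPM in OIR-CIH and 0.552 to 1.16 CPM in OIR-Norm. The groups overlapped and its interval ran from -1.75 to 0.12 on the log2 scale. Fadd, the adaptor that links these receptors to caspase-8, was at 5.12 ± 0.511 CPM in OIR-CIH and 5.38 ± 0.620 CPM in OIR-Norm (SD, n = 3), with an interval of -0.39 to 0.26. The microglial marker sum and Gfap were lower in OIR-CIH, as were Tnfrsf1a and Ripk1. Within OIR-Norm, replicate 3 had the lowest marker sum (153 CPM), Gfap (119 CPM) and Tnfrsf1a (17.3 CPM), but the highest Ripk1 (16.0 CPM). The part of the microglial markers or Gfap in these values was not tested.

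Of the 4 anti-apoptotic BCL2 proteins, Bcl2 stood alone in having groups without overlap. BCL2 holds BAX and BAK in check at the mitochondrial membrane. Its transcript was at 11.3, 10.4 and 10.6 CPM in OIR-CIH and at 14.2, 14.3 and 11.8 CPM in OIR-Norm. As for Tnfrsf1a, OIR-Norm replicate 3 was the lowest of its group and the nearest to the OIR-CIH libraries. The log2 fold change was -0.32 ± 0.11 (SE), short of the minimum of 0.5, with an edgeR adjusted p of 0.286. It shares 6.09% of its exon bases with an antisense transcript, D630008O14Rik, and lies at chr1:106538178-106714274. The other 3 protective members, Bcl2l1 (BCL-XL), Bcl2l2 (BCL-W) and Mcl1, overlapped between groups, with log2 fold changes of 0.07, -0.02 and -0.10 and intervals within -0.25 and 0.25.

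Pore-forming effectors and BH3-only proteins, which promote apoptosis, had positive log2 fold changes in 7 of 10 cases. Bbc3 encodes PUMA, a BH3-only protein that p53 induces. Its level was 12.1, 12.1 and 10.2 CPM in OIR-CIH and 8.70, 9.58 and 8.73 CPM in OIR-Norm. All OIR-CIH libraries were above all OIR-Norm libraries, at a log2 fold change of 0.34 ± 0.12 (SE) and an edgeR adjusted p of 0.272. Bad, a BH3-only protein that growth factor signalling keeps inactive, measured 22.1, 24.1 and 21.9 CPM against 20.6, 16.5 and 20.4 CPM. Its groups were also apart, though by little, since OIR-Norm replicates 1 and 3 lay just under the OIR-CIH range and replicate 2, the library with lens RNA, lay well below. The log2 fold change of Bad was 0.24 ± 0.10 (SE) with an edgeR adjusted p of 0.351, and it was 0.14 without OIR-Norm replicate 2, the lowest value when single libraries were left out. Bad shares 20.5% of its exon bases with Gpr137 on the opposite strand. Bak1, Bid, Casp9, Fadd and Diablo also share between 1.81% and 21.5% of their exon bases with genes on the opposite strand. Since the strand setting of the counting is not stated, how reads in the shared bases of Bad, Bcl2, Ripk1 and these 5 genes were counted is not known.

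Bok, a BAX relative that forms pores without the usual activators, was at 6.28, 8.36 and 8.15 CPM in OIR-CIH and 6.39, 5.65 and 6.31 CPM in OIR-Norm. The groups overlapped because OIR-CIH replicate 1 fell inside the OIR-Norm range, and the log2 fold change was 0.32 ± 0.14 (SE) with an edgeR adjusted p of 0.359. Bax and Bak1, the main effectors, had intervals of -0.06 to 0.35 and -0.22 to 0.21. The remaining BH3-only genes were Bcl2l11 (BIM) and Bmf, with log2 fold changes of 0.12 and 0.10, Hrk (0.05), Bid, the caspase-8 substrate (-0.02), and Pmaip1 (NOXA, -0.56 at a mean of 0.667 CPM in OIR-CIH and 1.06 CPM in OIR-Norm). All 5 overlapped between groups, with edgeR adjusted p from 0.574 to 0.978.

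**Figure D3:**
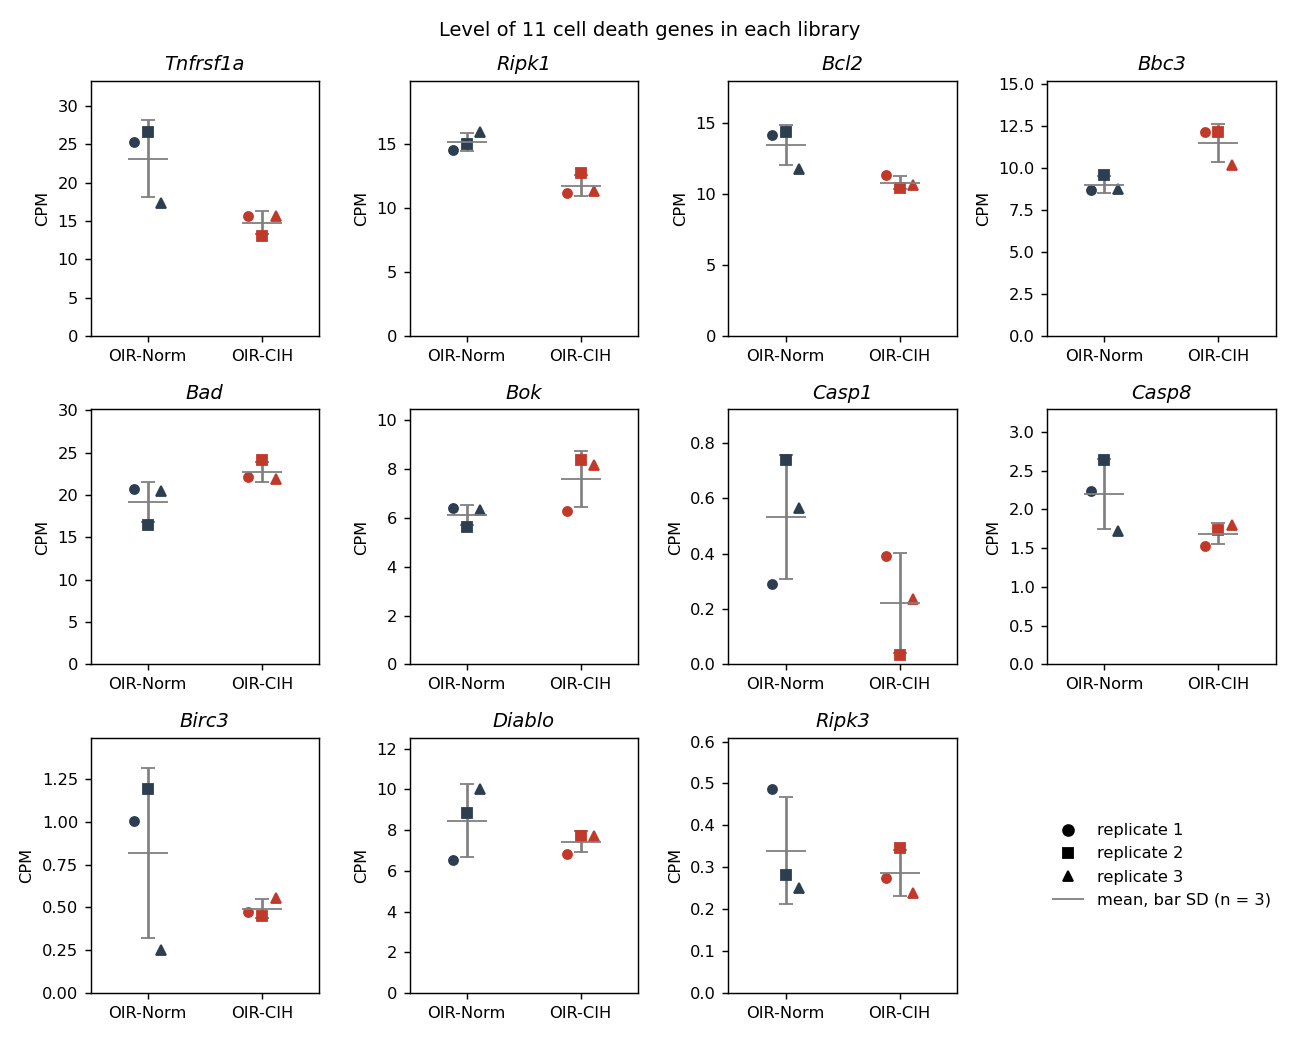
CPM (y axis, from 0) of 11 genes in each OIR-Norm and OIR-CIH library, with the mean and SD of the 3 libraries per group in grey and a symbol for each replicate number. OIR-CIH libraries lie below OIR-Norm for Tnfrsf1a, Ripk1 and Bcl2, above it for Bbc3 and Bad, and overlap it for the other 6 genes.

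The balance of BAX to its inhibitors is often written as a ratio. Library scaling cancels in a ratio within a library, except for the effect of the 0.5 CPM added here before the log. The log2 ratio of Bax to Bcl2, on log2(CPM + 0.5), was 1.81, 1.72 and 1.59 in OIR-CIH and 1.21, 1.11 and 1.496 in OIR-Norm. The groups did not overlap, although OIR-CIH replicate 3 and OIR-Norm replicate 3 were close. The means were 1.71 ± 0.113 and 1.27 ± 0.202 (SD, n = 3), a difference of 0.44. Against Bcl2l1, the more abundant inhibitor per exon length, the same ratio was -0.98 ± 0.259 in OIR-CIH and -1.05 ± 0.0915 in OIR-Norm (SD, n = 3), a difference of 0.08 within the spread of the libraries. In OIR-Norm, Bcl2 was at 1.47 CPM per kb of exon, against 39.7 for Bcl2l2 and 35.3 for Mcl1, to which no ratio was taken. Bcl2 by itself also had groups without overlap, so that its ratio is not separate from that result. Both ratios are descriptions without a test, and they are not corrected for exon length, so that only their difference between groups can be read.

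**Figure D4:**
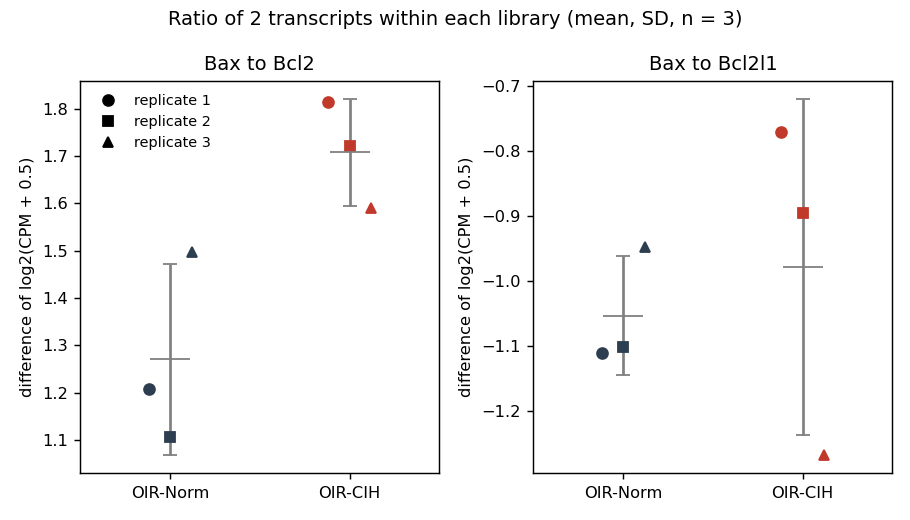
Difference of log2(CPM + 0.5) between Bax and Bcl2 (left) and between Bax and Bcl2l1 (right) in each library, with the mean and SD of 3 libraries per group in grey and a symbol for each replicate number. The left groups lie apart, at 1.59 to 1.81 and 1.11 to 1.496, and the right groups overlap.

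Downstream of the mitochondrial pore no member had groups apart. Apaf1, the scaffold of the apoptosome, Cycs (cytochrome c), Aifm1 (apoptosis-inducing factor) and Diablo, which frees caspases from IAP proteins, overlapped between groups. Diablo had the lowest p of the 4, with 6.83, 7.73 and 7.73 CPM in OIR-CIH and 6.52, 8.84 and 10.0 CPM in OIR-Norm, a log2 fold change of -0.18 ± 0.16 (SE) and an edgeR adjusted p of 0.648. The OIR-CIH libraries all lay within the OIR-Norm range, and 19.3% of the exon bases of Diablo are shared on the same strand with Gm49027 and 21.5% on the opposite strand with B3gnt4, so that its count is uncertain. Without OIR-Norm replicate 3 its log2 fold change was -0.04, and without OIR-Norm replicate 1 it was -0.35.

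Of the apoptotic caspases, the initiators Casp2 and Casp9 were at 23.1 to 36.1 CPM over all libraries, Casp6, an effector, at 5.89 to 6.84 CPM and Casp8, the initiator downstream of death receptors, at 1.53 to 2.63 CPM. The 4 genes overlapped between groups. Casp8 was at 1.53, 1.73 and 1.80 CPM in OIR-CIH and 2.24, 2.63 and 1.73 CPM in OIR-Norm, with a log2 fold change of -0.36 ± 0.23 (SE) and an edgeR adjusted p of 0.513. Here too OIR-Norm replicate 3 was at the level of OIR-CIH, and the log2 fold change was -0.52 without it and -0.22 without OIR-Norm replicate 2.

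The IAP proteins bind caspases or TNF receptor complexes and block death. Xiap, on the X chromosome, was at 434 to 463 CPM in OIR-CIH and 402 to 469 CPM in OIR-Norm, with an interval of -0.15 to 0.20, and Birc2 had an interval of -0.06 to 0.28. Birc3, the NF-kB-induced member, was at 0.471, 0.451 and 0.556 CPM in OIR-CIH and 1.01, 1.19 and 0.251 CPM in OIR-Norm. The first 2 OIR-Norm replicates were above all OIR-CIH libraries and the last below them, for a log2 fold change of -0.68 ± 0.48 (SE) and an edgeR adjusted p of 0.567. It was -0.32 without OIR-Norm replicate 2 and -1.13 without OIR-Norm replicate 3.

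Among the members, inflammatory caspases and the executors of necroptosis and pyroptosis were barely detected in these retinas. This does not extend to all pyroptosis genes, since Gsdme, which is not a member, had means of 22.1 CPM in OIR-CIH and 22.3 CPM in OIR-Norm. Casp1, which cleaves gasdermin D and interleukin-1 beta, had 10, 1 and 9 reads in OIR-CIH and 9, 21 and 18 in OIR-Norm, or 0.392, 0.0347 and 0.238 CPM against 0.292, 0.737 and 0.565 CPM. The groups overlapped, with the lowest value in OIR-CIH replicate 2. Its log2 fold change was -1.26 ± 0.56 (SE), with an interval of -2.49 to -0.04 and an edgeR adjusted p of 0.359. It was -0.52 with limma, and -0.80 without OIR-CIH replicate 2 and -1.79 without OIR-CIH replicate 1. Casp4 and Casp12 had 2 to 16 reads per library and intervals of -1.80 to 0.86 and -2.09 to 0.18. Ripk3 was at 0.275, 0.347 and 0.238 CPM in OIR-CIH and 0.487, 0.281 and 0.251 CPM in OIR-Norm, and the log2 fold change of -0.26 ± 0.45 (SE) had an edgeR adjusted p of 0.837. Mlkl, the necroptosis pore, ran from 3 to 33 reads within OIR-Norm alone, and its interval ran from -1.58 to 1.54 on the log2 scale. Gsdmd (gasdermin D) was at 1.05 ± 0.121 and 1.04 ± 0.331 CPM (SD, n = 3), with an interval of -0.66 to 0.64.

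The 8 members with a mean under 1 CPM (Casp1, Casp4, Casp12, Pmaip1, Birc3, Fas, Ripk3 and Mlkl) all had negative log2 fold changes, with a median of -0.62 and 1 unadjusted p under 0.05. Of all 5221 tested genes under 1 CPM, 58.8% had a negative log2 fold change, with a median of -0.11. The 27 members at 1 CPM or more were 14 negative and 13 positive, with a median of -0.01. DESeq2 gave no adjusted p to 5 of the 8, Casp1, Casp4, Casp12, Ripk3 and Mlkl, because of their low counts. In 7 of the 8 genes, all but Ripk3, the highest library was OIR-Norm replicate 2. This library also had the highest sums of lens, of endothelial and of neutrophil and monocyte markers. Without it 6 of the 8 were negative, with a median of -0.35, and Mlkl (1.77) and Pmaip1 (0.0278) were positive. The microglial marker sum was also lower in OIR-CIH, though its highest library was OIR-Norm replicate 1 (172 CPM). Its part in these values was not tested, nor was that of the endothelial or the neutrophil and monocyte markers of OIR-Norm replicate 2.

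Levels of the members are comparable between genes only per exon length, as CPM per kb. On that scale 3 survival genes led in OIR-Norm, with Xiap at 46.2 ± 3.57, Bcl2l2 at 39.7 ± 5.25 and Mcl1 at 35.3 ± 1.33 CPM per kb (SD, n = 3). Xiap and Bcl2l2 lay within their spread of each other, as did Bcl2l2 and Mcl1. Bax followed at 20.9 ± 0.875, apart from Mcl1 above and from Bcl2l1 below at 15.1 ± 0.712, while Birc2 (13.5 ± 0.433) and Cycs (13.3 ± 1.96) did not differ beyond their spread. Tnfrsf1a was the 9th of 35 in OIR-Norm at 8.91 ± 1.94 CPM per kb and the 13th in OIR-CIH at 5.70 ± 0.581. The 8 genes highest in OIR-Norm kept their order in OIR-CIH. Other survival genes ranked low in OIR-Norm, with Bcl2 21st at 1.47 and Birc3 32nd at 0.163 CPM per kb. At the other end, Ripk3 (0.148 ± 0.0560), Casp12 (0.0956 ± 0.0480) and Casp4 (0.0540 ± 0.0341) were the 3 lowest in OIR-Norm, and each lay within its spread of the next in that order.

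**Figure D5:**
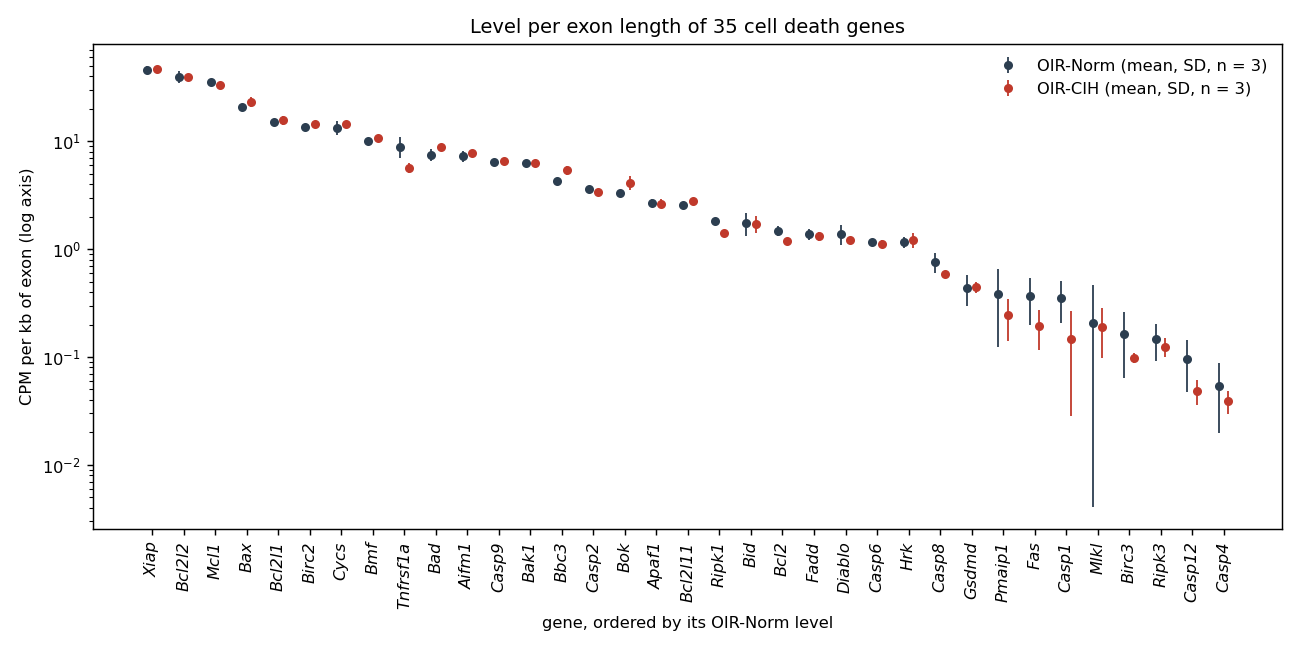
Mean CPM per kb of exon (log axis) of the 35 genes in OIR-Norm and OIR-CIH, ordered by the OIR-Norm level, with the SD of 3 libraries as bars. Levels run from 46.2 for Xiap to 0.0540 for Casp4 in OIR-Norm, and the lower bar of Mlkl, whose SD exceeds its mean, is drawn only to just above 0.

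Another 63 genes of these pathways, of which 61 were tested, were examined beside the members. The edgeR test called 0 of them, DESeq2 called 2 (Bcl6 and Tnfrsf1b) and limma called 0. Unadjusted p under 0.05 was reached by 17 (27.9%, beside 13.4% of all genes), 11 lower and 6 higher in OIR-CIH, and the groups were apart for 15 (24.6%, beside 18.4% of all genes). These genes were listed with earlier results of these data known, so that their shares are not independent of that choice. The lowest adjusted p was that of Bcl6, a transcriptional repressor of the p53 gene, at 21.0, 16.9 and 17.3 CPM in OIR-CIH and 29.2, 25.6 and 23.9 CPM in OIR-Norm, a log2 fold change of -0.52 ± 0.11 (SE) with an edgeR adjusted p of 0.0919. Tnfrsf1b, the second TNF receptor, was at 2.59, 3.02 and 3.49 CPM against 5.52, 6.24 and 4.12 CPM, a log2 fold change of -0.78 ± 0.19 (SE) with an edgeR adjusted p of 0.157. As for Tnfrsf1a, its lowest OIR-Norm library was replicate 3. Trp53, which encodes p53, had a log2 fold change of -0.38 ± 0.10 (SE, adjusted p = 0.185 by edgeR), while Bbc3, one of its known targets, had a positive one. Jun and Trib3, stress-induced regulators upstream of BH3-only genes, had log2 fold changes of 0.26 ± 0.08 and 0.47 ± 0.14 (SE, edgeR adjusted p = 0.228 and 0.233). Bcl6 and Tnfrsf1b are also on the list the study drew from these samples. Tnf itself had 0, 2 and 3 reads in OIR-CIH and 6, 7 and 4 in OIR-Norm. Gsdme overlapped between groups, with a log2 fold change of -0.01 ± 0.09 (SE) and an edgeR adjusted p of 0.969.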

How the data were processed

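Per the labels, libraries were made from 250 ng of retinal RNA with a stranded poly(A) kit. The authors aligned reads with STAR 2.7.9a and deposited raw counts per gene for 6 libraries, without normalization. The paper names Ensembl 105 and the submitters' processing notes GRCm38, so that the build is uncertain, and which strand column was kept is not stated. Gene identifiers were matched to GENCODE M21 (GRCm38) for symbols and coordinates. The members and gene lists were chosen with earlier results of these data known. The 20021 of 32285 genes whose counts summed to 10 or more were tested with edgeR 4.0.16 (TMM scaling, quasi-likelihood) in R 4.3.3, and p-values were adjusted over all of them by Benjamini-Hochberg. CPM used the TMM-scaled library sizes. SE was the log2 fold change over the square root of F, and intervals were 95%. A self-test on simulated counts was run. Alternatives were DESeq2 1.42.0, limma 3.58.1 on log2(CPM + 0.5), another edgeR likelihood, scaling, filters, no minimum fold change, a replicate block and leaving out each library. No replicate pair agreed within sampling noise. Members were described in full if their unadjusted p was under 0.05, if an alternative called them or if they had the lowest p of their role group. Of the other pathway genes, the 5 with the lowest adjusted p were named, with Tnf and Gsdme added after their values were seen. Some results are not reported here.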

Additional observations from a re-analysis of the deposited data

How the results depend on the processing

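DESeq2 called 135 genes and 1 member where edgeR called 63 and 0. Leaving out 1 library gave 29 genes, with OIR-CIH replicate 1 removed, to 97, with OIR-Norm replicate 3 removed, and 0 to 1 members, the member being Tnfrsf1a without OIR-Norm replicate 3. With limma, the older edgeR likelihood, median-of-ratios scaling, every gene with at least 1 count, filterByExpr and no minimum fold change, 66, 63, 63, 77, 65 and 78 genes and 0 members were called. The replicate block called 68 genes, 48 of them among the 63, and 0 members. The numbers did not pair the libraries, since deviations of same-numbered libraries correlated at 0.162, 0.143 and -0.238. Of 452 log2 fold changes of members under these alternatives, 30 turned direction, 25 of them without 1 library, in 13 members. Over single libraries left out the log2 fold changes ran, in order, for Bcl2l1 -0.0157 to 0.12, Bcl2l2 -0.13 to 0.0485, Bak1 -0.0509 to 0.0456, Bid -0.18 to 0.18, Pmaip1 -1.01 to 0.0278, Hrk -0.0698 to 0.18, Casp9 -0.00303 to 0.0841, Apaf1 -0.0978 to 0.0336, Xiap -0.0341 to 0.0719, Fadd -0.14 to 0.0299, Ripk3 -0.45 to 0.0846, Mlkl -0.53 to 1.77, Gsdmd -0.22 to 0.22. With all libraries, Mlkl turned to 0.0902 with limma and 0.00509 with the replicate block, and Gsdmd to 0.000203 with DESeq2, 0.024 with limma and 0.00958 with the replicate block. The cause was not tested. The Bax to Bcl2 difference stayed between 0.36 and 0.55. That of Bax to Bcl2l1 ran from -0.03 to 0.22. The 8 members under 1 CPM had few reads and a wide spread between libraries, and which of these set their intervals was not tested.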
